A study of Homo sapiens with 6 samples.

Results

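The RAB small GTPases described here are the genes whose symbol in the deposited gene table is RAB followed by a number and at most 1 letter: 61 of the 63563 genes, with 60 distinct symbols. The symbol RAB4B stands on 2 gene IDs, and the reference names the other one (ENSG00000171570) as the read-through gene RAB4B-EGLN2. Of the 61 members, 42 reached at least 1 FPKM (fragments per kilobase of transcript and M fragments) in at least 3 of the 6 libraries and were tested, and 19 lay below this filter. RAB34 is listed under a joint symbol and is therefore no member; it stood at 0.139 FPKM in OVER43 cells, against 0.157 FPKM in EV cells.

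The libraries are poly(A) RNA of RKO cells, a human colorectal cancer line. The OVER43 group (3 libraries) was stably transfected with the vector pcDNA3.1 carrying the cDNA of connexin 43 (Cx43, gene GJA1), a gap junction protein. The EV group (3 libraries) carried the empty vector and has the genotype label WT, so both groups carry the vector. Neither the use of clones or pools nor separate cultures for the replicates are stated, so the p-values measure the spread between libraries, which may be technical. GJA1 itself read 23.2, 26.05 and 24.9 FPKM in OVER43 libraries, against 0.2999, 0.351 and 0.394 FPKM in EV libraries.

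RAB proteins are molecular switches of membrane traffic: loaded with GTP they recruit effectors (tethers, motors, coat and fusion factors) to one membrane, and hydrolysis of GTP turns them off. Guanine nucleotide exchange factors (GEFs) load them, GTPase-activating proteins (GAPs) switch them off, and a lipid tail added by geranylgeranyl transferase lets them enter and leave membranes with the help of the escort proteins and GDI. In epithelial cells, different RABs serve transport between the endoplasmic reticulum (ER) and the Golgi, early, recycling and late endosomes, and the delivery of cargo to the cell surface, where connexins form gap junctions.

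Of the 42 tested RAB genes, 7 were higher and 11 lower in OVER43 (limma on log2(FPKM + 1), adjusted p under 0.05 over all 12205 tested genes, here termed called). The 18 called members are 42.9% of those tested, beside 45.9% of all tested genes. By direction, 16.7% of the RAB genes were called higher, beside 28.4% of all genes, and 26.2% were called lower, beside 17.5% of all genes. The members called higher were RAB8B, RAB5C, RAB9A, RAB13, RAB2A, RAB10 and RAB7A. Those called lower were RAB30, RAB26, RAB3A, RAB5B, RAB4B, RAB14, RAB18, RAB2B, RAB3D, RAB27A and RAB11B. In bulk RNA, fewer cells with a transcript and less of it per cell cannot be told apart.

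No tested member differed by 1 or more on the log2(FPKM + 1) scale, a size that 1.96% of all tested genes reached with a call, and 17 of the 42 lay within 0.1 of no change on the log2 scale. The median log2 fold change was -0.049 over the RAB genes and 0.053 over all tested genes, and the median absolute log2 fold change was 0.193 and 0.208. In 24 of the 42 members (57.1%, beside 56.3% of all tested genes) the 3 OVER43 libraries did not overlap with the 3 EV libraries, 10 of them above and 14 below.

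**Figure D1:**
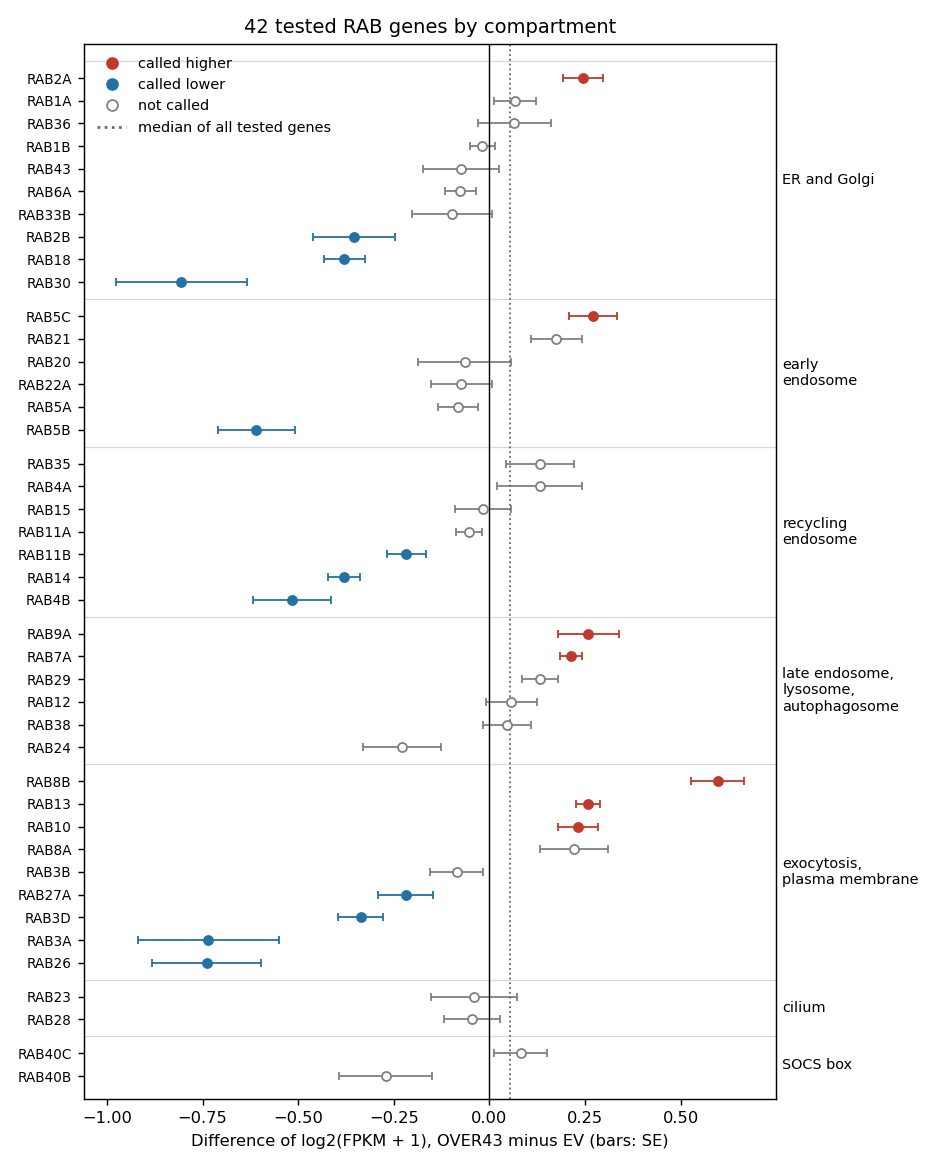
Difference of log2(FPKM + 1), OVER43 minus EV, of the 42 tested RAB genes (points; bars are SE), grouped by compartment; filled points are called. RAB8B stands highest at 0.60 and RAB30 lowest at -0.81, and the ER and Golgi, early endosome and exocytosis groups each hold both higher and lower members.

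The calls of the smaller increases depended on how the libraries were scaled to each other. Summed FPKM lay between 554456 and 566947 in OVER43 libraries and between 500546 and 509175 in EV libraries. Scaling to equal sums shifted the median log2 fold change of all tested genes to -0.076, beside 0.053 as deposited, and the RAB calls were then 2 higher and 18 lower, with 1870 genes higher and 3567 lower over all genes. Of all genes, 15.3% were then higher and 29.2% lower. Quantile scaling gave 2 higher and 14 lower RAB genes, beside 21% higher and 19.9% lower of all genes, and TMM scaling (trimmed mean of M values) gave 6 and 13, beside 23.3% and 20.9%. The RAB median lay below that of all genes each time. The difference was -0.10 as deposited, -0.11 with TMM, -0.088 with quantile scaling and -0.10 with equal sums. TMM and equal sums multiply all genes of a library by the same factor, which moves both medians nearly alike. Their differences were therefore almost fixed beforehand and are no separate test of the gap. Quantile scaling uses no such common factor. RAB8B was the only member called higher under all 4 scalings. RAB30, RAB26, RAB3A, RAB5B, RAB4B, RAB14, RAB18, RAB2B, RAB3D and RAB11B, 10 in all, were called lower under all 4. The sign differed between scalings in 11 of the 42 members, none of them among the 18 called.

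**Figure D2:**
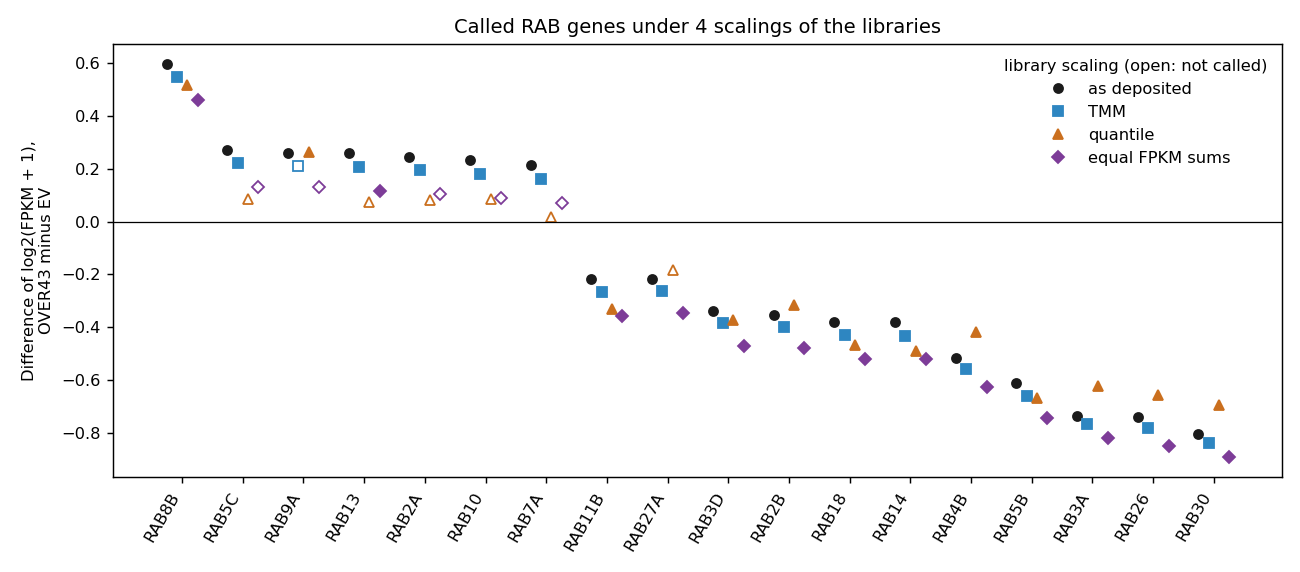
Difference of log2(FPKM + 1), OVER43 minus EV, of the 18 called RAB genes with the libraries as deposited and under 3 other scalings; open symbols are not called. RAB8B and the 10 members from RAB11B to RAB30 other than RAB27A stay filled throughout, while RAB7A lies at 0.21 as deposited and at 0.016 with quantile scaling.

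The largest increase was that of RAB8B, which acts with RAB8A in transport from the Golgi and recycling endosomes to the plasma membrane. RAB8B read 26.7, 30.4 and 28.7 FPKM in OVER43 libraries, against 19.5, 19.1 and 17.1 FPKM in EV libraries. All OVER43 libraries lay above all EV libraries, by 1.54-fold in the means (log2 difference 0.60 with an SE of 0.069, adjusted p = 0.000288 by limma). The gene lies alone in its locus at chr15:63481668-63559981 (hg19 positions, as in the deposited tables). Its paralog RAB8A read 34.9, 38.97 and 35.6 FPKM in OVER43 libraries, against 33.3, 33.8 and 26.8 FPKM in EV libraries. These groups did not overlap either, but the EV libraries were spread and the difference missed the threshold (log2 difference 0.22 with an SE of 0.089, adjusted p = 0.0749 by limma).

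In RAB8B and RAB8A, and in RAB5C and RAB5B of the early endosome (described further on), the ratio of the 2 levels differed between the groups without overlap. Their RefSeq promoter windows (GRCh38.p14, plus strand except for RAB5C on the minus strand, 250 bases before to 50 after the start) are shown to set the members of these pairs beside each other. Capitals mark the motifs searched for on both strands: GGGCGG (GC box, CCGCCC on the other strand), TGANTCA (AP-1), CTTTGA (TCF/LEF, TCAAAG on the other strand) and CACGTG (E-box).
RAB8B chr15:63189356-63189655: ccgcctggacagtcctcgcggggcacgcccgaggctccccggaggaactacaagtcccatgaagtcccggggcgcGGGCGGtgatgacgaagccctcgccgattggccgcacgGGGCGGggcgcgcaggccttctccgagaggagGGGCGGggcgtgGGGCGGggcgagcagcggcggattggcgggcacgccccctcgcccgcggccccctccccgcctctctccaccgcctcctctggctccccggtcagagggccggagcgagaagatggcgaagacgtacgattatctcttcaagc
RAB8A chr19:16111639-16111938: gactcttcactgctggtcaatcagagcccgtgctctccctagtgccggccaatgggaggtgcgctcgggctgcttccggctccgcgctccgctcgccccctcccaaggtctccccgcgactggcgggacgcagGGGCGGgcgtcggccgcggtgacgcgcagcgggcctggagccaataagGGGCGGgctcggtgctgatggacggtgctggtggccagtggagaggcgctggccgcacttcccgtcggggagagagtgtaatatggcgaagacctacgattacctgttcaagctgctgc
RAB5C chr17:42154940-42155239: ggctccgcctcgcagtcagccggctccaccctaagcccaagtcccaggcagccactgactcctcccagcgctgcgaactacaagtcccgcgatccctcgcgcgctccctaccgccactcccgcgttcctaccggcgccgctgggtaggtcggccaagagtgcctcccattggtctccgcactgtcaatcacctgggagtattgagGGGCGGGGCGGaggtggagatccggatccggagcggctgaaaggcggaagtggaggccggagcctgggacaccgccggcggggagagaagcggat
RAB5B chr12:55973699-55973998: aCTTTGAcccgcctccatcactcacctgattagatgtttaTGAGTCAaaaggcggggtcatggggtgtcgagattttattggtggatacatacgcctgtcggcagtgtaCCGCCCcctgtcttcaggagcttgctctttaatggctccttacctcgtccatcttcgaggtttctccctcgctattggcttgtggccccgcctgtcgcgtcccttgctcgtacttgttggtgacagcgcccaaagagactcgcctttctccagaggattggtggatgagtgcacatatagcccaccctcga

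The RAB8B window held 4 GC boxes, the RAB8A window 2, the RAB5C window 2 that overlap each other, and the RAB5B window 1. Of these windows only that of RAB5B held an AP-1 match, 1, and a TCF/LEF match, 1; RefSeq gives RAB5B a second start, whose window held 1 GC box and none of the other 3 motifs. Among the 33 tested RAB genes with a RefSeq window, 31 held a GC box (93.9%, beside 78.9% of 8990 tested genes with a window), 6 the TCF/LEF letters (18.2% beside 11.3%), 5 an E-box (15.2% beside 13.1%) and 4 the AP-1 letters (12.1% beside 6.74%). The GC box was in all 6 called-higher members with a window and in 9 of the 10 called lower; the TCF/LEF letters were in 1 and 2 of them, the AP-1 letters in 1 and 2, and the E-box in 0 and 0. A match is a run of letters in the reference genome and was not measured in these cells.

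Among the other RABs of transport to the surface, RAB13 and RAB10 were called higher. Of the RAB3 genes, RAB3A and RAB3D were called lower and RAB3B was not called. RAB13, which serves tight junction and junctional cargo transport in epithelial cells, was the most abundant member in OVER43 and the second in EV. RAB13 read 176, 169 and 177 FPKM in OVER43 libraries, against 148, 144 and 144 FPKM in EV libraries. The groups were well apart (log2 difference 0.26 with an SE of 0.031, adjusted p = 0.000367 by limma), although quantile scaling ended the call (limma adjusted p = 0.0649, range over the alternatives 0.000202 to 0.0649). RAB10, of basolateral and GLUT4 vesicle transport, read 75.5, 77.1 and 76.2 FPKM in OVER43 libraries, against 68.1, 66.8 and 59.7 FPKM in EV libraries. All OVER43 libraries were above all EV libraries (log2 difference 0.23 with an SE of 0.052, adjusted p = 0.00734 by limma). Its call ended with quantile scaling (limma adjusted p = 0.192), equal sums (0.1596) and no filter (0.0664), the range over the alternatives being 0.00494 to 0.192.

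RAB3A, a RAB of regulated exocytosis known from synaptic vesicles, was weakly expressed and lower in OVER43. RAB3A read 0.571, 1.48 and 0.866 FPKM in OVER43 libraries, against 1.87, 2.66 and 2.19 FPKM in EV libraries. No library overlapped between the groups, but the OVER43 values straddle 1 FPKM (log2 difference -0.73 with an SE of 0.18, adjusted p = 0.0121 by limma), and without a filter the limma adjusted p was 0.0968 (range over the alternatives 0.00432 to 0.0968). RAB3D, of secretory granules, averaged 11.4 ± 0.433 FPKM in OVER43 cells, against 14.6 ± 0.505 FPKM in EV cells (log2 difference -0.34 with an SE of 0.059, adjusted p = 0.00231 by limma; SD, n = 3 libraries per group, as for all means here). RAB3B, at 8.42 ± 0.554 and 8.98 ± 0.0697 FPKM, was not called (limma adjusted p = 0.341), except lower with equal sums (0.0439, range over the alternatives 0.0439 to 0.688).

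RAB26, of secretory granules and synaptic vesicle autophagy, read 3.11, 2.6999 and 1.91 FPKM in OVER43 libraries, against 4.41, 4.82 and 5.55 FPKM in EV libraries. The highest OVER43 library stayed below the lowest EV library, with a ratio of means of 0.523 (log2 difference -0.74 with an SE of 0.14, adjusted p = 0.00351 by limma). RAB27A, which docks exosome-forming and secretory organelles at the plasma membrane, read 6.59, 6.26 and 6.37 FPKM in OVER43 libraries, against 7.44, 7.27 and 8.19 FPKM in EV libraries. The groups did not overlap and the difference lay just past the threshold (log2 difference -0.22 with an SE of 0.073, adjusted p = 0.0385 by limma). This call was lost without OVER43 library 0 (limma adjusted p = 0.0696), 1 (0.0989) or 2 (0.0829), without EV library 0 (0.0669) or 2 (0.111), with quantile scaling (0.0791) and with no filter (0.07705), in a range of 0.00738 to 0.111. RAB27B, its paralog, and RAB3C, RAB37 and RAB44 of the same group were below the filter, at 0.202 FPKM or less in both group means.

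In the group of exocytosis and the plasma membrane (13 members, 9 tested), 3 were higher and 4 lower, beside 28.4% and 17.5% of all tested genes. Summed over this group, the level was 345 ± 1.701 FPKM in OVER43 cells, against 299 ± 10.1 FPKM in EV cells. The sum was higher in each OVER43 library although more members were called lower. As deposited, the sum over all genes was also higher in each OVER43 library. RAB13 and RAB10, both higher, make up most of the group sum.

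**Figure D3:**
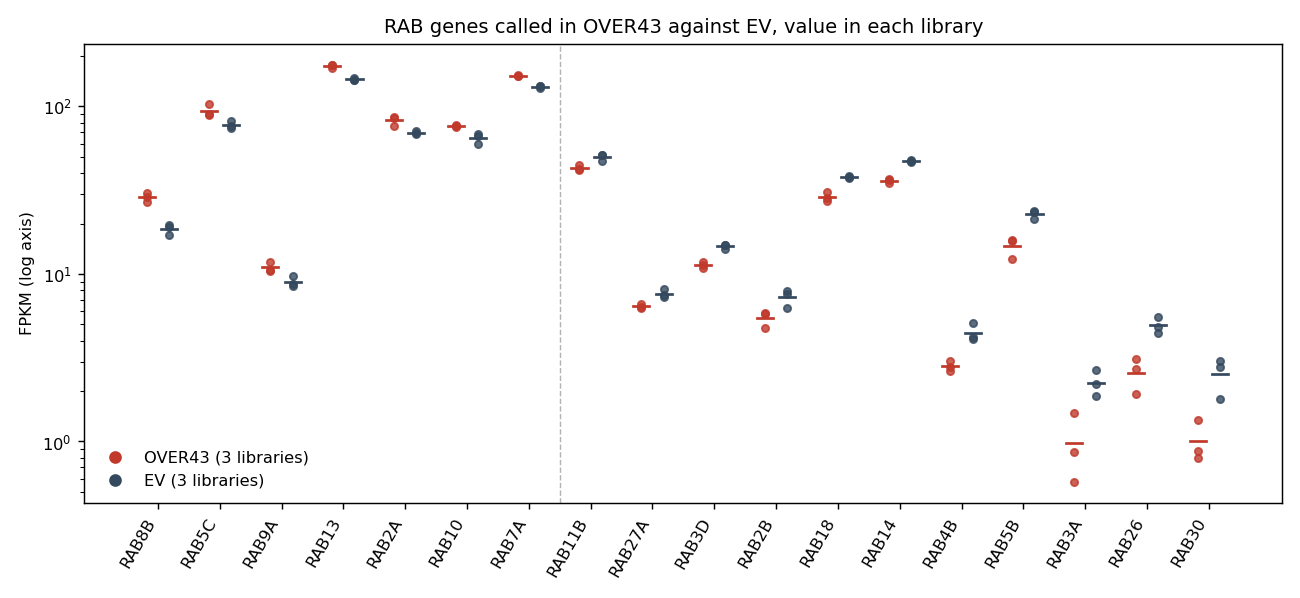
FPKM (log axis) of the 18 called RAB genes in each library (points; bars are group means), OVER43 in red and EV in dark blue, ordered by fold change with the 7 higher members left of the dashed line. The groups do not overlap in any of the 18, and those with means above 100 FPKM, RAB13 and RAB7A, are both higher.

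Of the 6 tested early endosome RABs, 1 was higher and 1 lower, beside 28.4% higher and 17.5% lower of all tested genes. RAB5A, RAB5B and RAB5C share the task of homotypic fusion and uptake at early endosomes. RAB5C, the most abundant of them, read 89.03, 90.01 and 103 FPKM in OVER43 libraries, against 76.5, 81.7 and 74.6 FPKM in EV libraries. All OVER43 libraries lay above the EV libraries (log2 difference 0.27 with an SE of 0.062, adjusted p = 0.00811 by limma); the call ended with quantile scaling (limma adjusted p = 0.238), equal sums (0.0868) and no filter (0.0862), in a range of 0.00502 to 0.238 over the alternatives. RAB5B read 15.8, 15.98 and 12.3 FPKM in OVER43 libraries, against 23.7, 21.3 and 23.3 FPKM in EV libraries. It fell in every comparison of an OVER43 with an EV library (log2 difference -0.61 with an SE of 0.0996, adjusted p = 0.00159 by limma). RAB5A, between them, read 20.2, 20.7 and 21.2 FPKM in OVER43 libraries, against 21.8, 23.005 and 21.1 FPKM in EV libraries. Its groups overlapped and it was not called (log2 difference -0.082 with an SE of 0.052, adjusted p = 0.237 by limma), except with equal sums, where it was called lower at a log2 difference of -0.22 (limma adjusted p = 0.00887, range over the alternatives 0.00887 to 0.523).

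RAB21, of integrin uptake, stood at 39.1 ± 1.27 FPKM in OVER43 cells, against 34.6 ± 3.11 FPKM in EV cells without overlap, but missed the threshold (limma adjusted p = 0.0636). RAB20 and RAB22A were not called, with overlapping groups. RAB31, of trans-Golgi to endosome transport, was below the filter and read 0.0477, 0.00547 and 0.239 FPKM in OVER43 libraries, against 0.00501, 0.268 and 0.423 FPKM in EV libraries. The sum over the early endosome group (7 members, 6 tested, 1 higher, 1 lower) was 182 ± 6.74 FPKM in OVER43 cells, against 171 ± 4.27 FPKM in EV cells, higher in each OVER43 library. The summed FPKM of all genes was also higher in each OVER43 library, and the share of this group in it was not computed.

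At recycling endosomes, 3 of the 7 tested members were lower and 0 were higher, beside 17.5% lower and 28.4% higher of all tested genes (45.9% called). RAB14, which moves cargo between the Golgi and endosomes, read 36.2, 37.1 and 34.8 FPKM in OVER43 libraries, against 47.6, 46.5 and 47.5 FPKM in EV libraries. Libraries of a group were close to each other and the groups far apart (log2 difference -0.38 with an SE of 0.042, adjusted p = 0.000219 by limma). RAB4B, of fast recycling, read 2.62, 3.004 and 2.79 FPKM in OVER43 libraries, against 5.09, 4.08 and 4.204 FPKM in EV libraries. Its groups did not overlap (log2 difference -0.52 with an SE of 0.10, adjusted p = 0.00415 by limma), but it lies in a locus of 12 genes with the RAB4B-EGLN2 read-through, which was listed at 0.168 FPKM in OVER43 cells, against 0.2404 FPKM in EV cells, so its reads may be split and its level is uncertain. RAB4A, its paralog, was not called, at 27.03 ± 2.61 and 24.7 ± 3.65 FPKM.

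RAB11A, the main RAB of slow recycling to the apical surface, was the most abundant member in EV and the second in OVER43. RAB11A read 175, 174 and 168 FPKM in OVER43 libraries, against 177, 175 and 185 FPKM in EV libraries. The OVER43 libraries lay just below the EV libraries, and the difference was not called (log2 difference -0.053 with an SE of 0.033, adjusted p = 0.227 by limma). It was called lower with TMM scaling (log2 difference -0.10, limma adjusted p = 0.0383), quantile scaling (-0.25, 0.001997) and equal sums (-0.20, 0.00381), with adjusted p from 0.001997 to 0.511 over the alternatives. Its paralog RAB11B averaged 42.9 ± 1.64 FPKM in OVER43 cells, against 50.04 ± 2.51 FPKM in EV cells (log2 difference -0.22 with an SE of 0.051, adjusted p = 0.00905 by limma), and its call was lost with no filter (limma adjusted p = 0.0605, range 0.000464 to 0.0605). The antisense gene RAB11B-AS1 shares this locus at 2.402 and 2.18 FPKM in OVER43 and EV; no source used here gives the strand of the reads, so reads of the pair cannot be told apart.

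RAB25, the epithelial member of the RAB11 group, was below the filter and read 0.139, 0.251 and 0 FPKM in OVER43 libraries, against 0.0891, 0.0996 and 0.0242 FPKM in EV libraries. RAB17, another epithelial RAB, stood at 0.0431 FPKM or less in all libraries. The sum over the recycling group (10 members, 7 tested) was 329 ± 5.63 FPKM in OVER43 cells, against 351 ± 7.29 FPKM in EV cells, lower in each OVER43 library.

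Among late endosome and lysosome RABs, 2 of 6 tested members were higher and 0 lower, beside 28.4% higher and 17.5% lower of all tested genes. RAB7A, which drives fusion of late endosomes with lysosomes and autophagosomes, read 151, 151 and 155 FPKM in OVER43 libraries, against 129, 133 and 132 FPKM in EV libraries. The group ranges were narrow and apart (log2 difference 0.21 with an SE of 0.029, adjusted p = 0.000648 by limma). Its call ended with quantile scaling (limma adjusted p = 0.664) and equal sums (0.0648), in a range of 0.000429 to 0.664. RAB9A, of transport from late endosomes back to the trans-Golgi network, read 10.6, 11.8 and 10.4 FPKM in OVER43 libraries, against 9.75, 8.74 and 8.45 FPKM in EV libraries. These groups did not overlap (log2 difference 0.26 with an SE of 0.079, adjusted p = 0.02696 by limma). The call was lost without OVER43 library 0 (limma adjusted p = 0.0531) or 1 (0.0891), without EV library 1 (0.0742) or 2 (0.0797), with TMM scaling (0.0582), equal sums (0.225) and no filter (0.1097), the range being 0.0206 to 0.225.

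RAB29, a RAB that recruits the kinase LRRK2 in other cells, stood at 27.1 ± 0.663 FPKM in OVER43 cells, against 24.7 ± 0.782 FPKM in EV cells without overlap, and missed the threshold (limma adjusted p = 0.0512). RAB12, RAB24 and RAB38 overlapped between groups and were not called. RAB24 was called lower with quantile scaling (limma adjusted p = 0.0448) and equal sums (0.0149), in a range of 0.00573 to 0.355 over the alternatives. RAB9B, the paralog of RAB9A, was below the filter at 1.05 FPKM in OVER43 cells, against 0.733 FPKM in EV cells, with all OVER43 libraries above the EV libraries. The sum over this group of 11 members was 245 ± 3.47 FPKM in OVER43 cells, against 220.4 ± 0.791 FPKM in EV cells, higher in each OVER43 library. The sum over all genes was higher in these libraries too, and no share of it was computed for this group.

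Between the ER and the Golgi, 1 of 10 tested members was higher and 3 were lower, beside 28.4% and 17.5% of all tested genes. RAB2A, of ER to Golgi and Golgi to lysosome transport, read 76.4, 85.7 and 86.7 FPKM in OVER43 libraries, against 70.96, 69.3 and 68.9 FPKM in EV libraries. All OVER43 libraries were above the EV libraries (log2 difference 0.24 with an SE of 0.052, adjusted p = 0.00565 by limma), and the call ended with quantile scaling (limma adjusted p = 0.188), equal sums (0.115) and no filter (0.057996), in a range of 0.00151 to 0.188. RAB2B, its paralog, read 4.77, 5.81 and 5.75 FPKM in OVER43 libraries, against 7.93, 6.26 and 7.54 FPKM in EV libraries. It was lower without overlap (log2 difference -0.35 with an SE of 0.11, adjusted p = 0.0264 by limma), but not called without OVER43 library 0 (limma adjusted p = 0.0875), EV library 0 (0.0865) or EV library 2 (0.0756), or with no filter (0.1396), in a range of 0.00764 to 0.1396.

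RAB18, which works at the ER and lipid droplets, read 27.3, 30.96 and 28.4 FPKM in OVER43 libraries, against 37.7, 38.3 and 37.5 FPKM in EV libraries. The EV libraries were nearly equal and all above the OVER43 libraries (log2 difference -0.38 with an SE of 0.053, adjusted p = 0.000758 by limma). RAB30, a Golgi RAB, read 0.8002, 1.35 and 0.873 FPKM in OVER43 libraries, against 1.801, 3.003 and 2.77 FPKM in EV libraries. It had the largest decrease of the tested members, to 0.399 of the EV mean, at levels near 1 FPKM (log2 difference -0.81 with an SE of 0.17, adjusted p = 0.00579 by limma), and with no filter its limma adjusted p was 0.0609 (range 0.00304 to 0.0609). Its locus holds 9 genes in the deposited table, and the divergent transcript RAB30-DT beside it stood at 8.94 ± 0.882 FPKM in OVER43 cells, against 10.2 ± 0.485 FPKM in EV cells, not called.

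RAB1A and RAB1B tether ER-derived vesicles to the Golgi. RAB1A read 78.6, 82.8 and 90.4 FPKM in OVER43 libraries, against 77.2, 80.5 and 82.4 FPKM in EV libraries, and RAB1B read 113, 116 and 117 FPKM in OVER43 libraries, against 116, 119.8 and 115 FPKM in EV libraries. Both overlapped between groups and were not called (log2 difference 0.066 with an SE of 0.055, adjusted p = 0.357 by limma for RAB1A; log2 difference -0.019 with an SE of 0.033, adjusted p = 0.663 by limma for RAB1B). The sign of RAB1A turned to -0.11 with quantile scaling and -0.076 with equal sums, not called in either, while RAB1B was called lower with quantile scaling (limma adjusted p = 0.000794) and equal sums (0.00291), in a range of 0.000794 to 0.9796. RAB6A, of retrograde Golgi transport, read 42.1, 41.05 and 40.4 FPKM in OVER43 libraries, against 44.6, 43.3 and 42.6 FPKM in EV libraries. Its groups stood just apart and it was not called (log2 difference -0.076 with an SE of 0.040, adjusted p = 0.161 by limma), but it was called lower with TMM scaling (limma adjusted p = 0.0336), quantile scaling (0.00884) and equal sums (0.003702), in a range of 0.003702 to 0.356. RAB6C, whose longest open reading frame is 96.3% identical to that of RAB6A with a shared run of 121 bases, is listed at 0 in all 6 libraries. RAB6A's value could therefore include reads of the copy. The ER and Golgi group of 15 members summed to 369.7 ± 14.8 FPKM in OVER43 cells, against 369 ± 2.08 FPKM in EV cells.

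The 2 cilium RABs, RAB23 and RAB28, and the tested SOCS box members RAB40B and RAB40C, subunits of ubiquitin ligases, were not called. RAB40B was called lower with equal sums (limma adjusted p = 0.0288, range over the alternatives 0.0288 to 0.366). Of the 19 members below the filter, RAB9B was the highest, followed by RAB6B at 0.427 FPKM in OVER43 cells, against 0.421 FPKM in EV cells, RAB40A at 0.303 and 0.419 FPKM in OVER43 and EV, and RAB19 at 0.1596 and 0.451 FPKM in OVER43 and EV. RAB32 and RAB39B, like RAB6C, are listed at 0 throughout. An exact 0 in these tables can be a missing estimate.

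The family as a whole summed to 1511 ± 22.4 FPKM in OVER43 cells, against 1454 ± 5.25 FPKM in EV cells, of which the 5 most abundant members by the mean of all 6 libraries, RAB11A, RAB13, RAB7A, RAB1B and RAB5C, made up 45.8%. As a share of all FPKM in a library, the family was 0.268%, 0.274% and 0.2699% in OVER43 libraries and 0.285%, 0.287% and 0.291% in EV libraries. The sum was higher and the share lower in each OVER43 library.

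Several RABs occur as close relatives with the same number, and the ratio of the 2 within a library does not depend on a scaling factor. In 9 of the 12 pairs of tested relatives, the ratios of the 3 OVER43 libraries did not overlap with those of the 3 EV libraries (exact permutation test, two-sided, p = 0.1 for each, the smallest that 3 against 3 allow). The groups of 56.3% of all single tested genes did not overlap either, and no share was computed for ratios of gene pairs at large. The pairs within a number share members and are not independent. RAB5C over RAB5B was 5.65, 5.63 and 8.41 in OVER43 libraries, against 3.23, 3.83 and 3.21 in EV libraries, a mean of 6.56 ± 1.602 in OVER43 and 3.42 ± 0.356 in EV. Leaving out OVER43 library 2, the highest, leaves the other 2 ratios at 5.65 and 5.63, still above all EV libraries.

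RAB2A over RAB2B was 16.02, 14.7 and 15.1 in OVER43 libraries, against 8.95, 11.1 and 9.14 in EV libraries. RAB8B over RAB8A was 0.766, 0.779 and 0.807 in OVER43 libraries, against 0.586, 0.566 and 0.637 in EV libraries. RAB4A over RAB4B averaged 9.701 ± 1.56 in OVER43 and 5.66 ± 1.42 in EV. In each of these pairs the ratio was higher in OVER43 without overlap. All 12 pairs are written with the gene of the higher log2 difference first, so this direction follows from the order. RAB3B over RAB3D (0.7404 ± 0.0224 in OVER43 and 0.615 ± 0.0263 in EV), RAB3B over RAB3A, RAB5A over RAB5B, RAB5C over RAB5A and RAB40C over RAB40B also stood apart, whereas RAB1A over RAB1B, RAB11A over RAB11B and RAB3D over RAB3A overlapped. The longest open reading frames in these 12 pairs were 72.5% to 79.7% identical, with shared runs of at most 55 bases, so some reads may still be split between relatives.

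**Figure D4:**
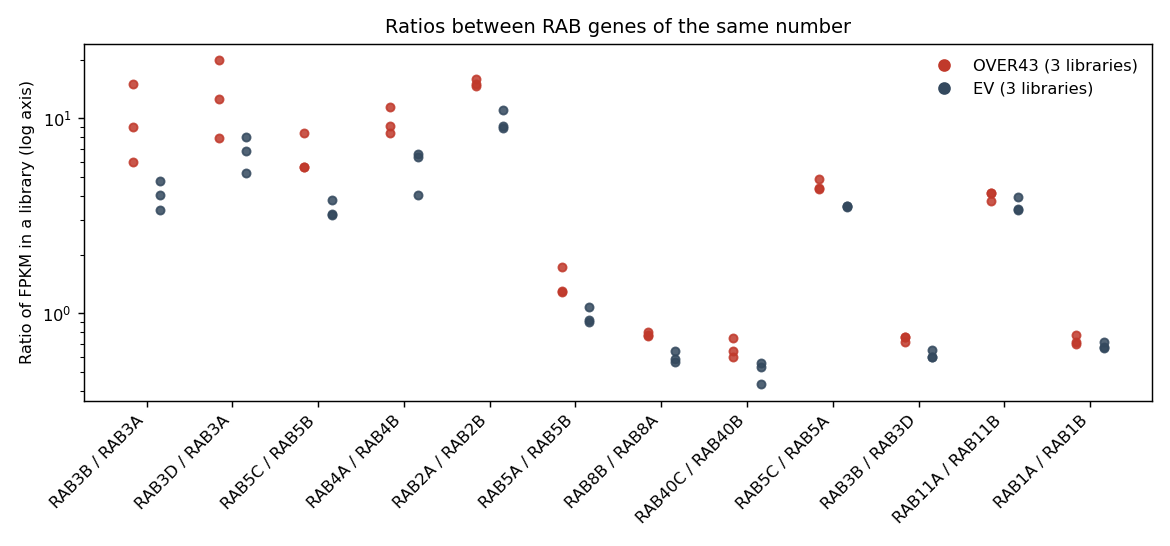
Ratio of FPKM (log axis) between 2 tested RAB genes of the same number in each library, OVER43 in red left of EV in dark blue. RAB5C over RAB5B lies between 5.63 and 8.41 in OVER43 libraries and between 3.21 and 3.83 in EV libraries. In 9 of the 12 pairs the groups do not overlap. The gene of the higher log2 difference is written first in each pair, which fixes the direction.

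The isoform table lists 340 transcripts of the RAB genes, of which 94 of 41 genes passed the filter. Of these, 6 were called higher and 7 lower, 13.8% of those tested, beside 14.5% of all 30015 tested transcripts; 6.38% were higher and 7.45% lower, beside 9.85% and 4.7% of all. Leaving out any 1 library left 2 to 5 higher and 2 to 4 lower, with no share of all transcripts computed for these fits. Both main RAB8B transcripts were higher. ENST00000321437.4 read 16.8, 16.4 and 15.98 FPKM in OVER43 libraries, against 12.9, 12.7 and 13.98 FPKM in EV libraries. ENST00000559006.1 read 4.3997, 11.7 and 9.51 FPKM in OVER43 libraries, against 1.43, 2.64 and 1.56 FPKM in EV libraries. All OVER43 libraries were above all EV libraries in both, by a larger difference in the second (log2 difference 1.66 with an SE of 0.35, adjusted p = 0.0292 by limma) than in the first (log2 difference 0.29 with an SE of 0.057, adjusted p = 0.0223 by limma). Its share of RAB8B's transcript FPKM was 29.4% ± 11.5 in OVER43 and 10.1% ± 3.35 in EV, and that of the first was 57.5% ± 4.72 in OVER43 and 71.6% ± 8.95 in EV; the difference between the 2 transcripts was not tested.

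The other called transcripts, except those of RAB21 and RAB28, belong to genes called in the same direction. The single tested transcript of RAB14 averaged 35.8 ± 1.17 FPKM in OVER43 cells, against 46.8 ± 0.627 FPKM in EV cells (log2 difference -0.38 with an SE of 0.038, adjusted p = 0.00257 by limma). RAB13's leading transcript ENST00000368575.3, with 98.2% of the gene in OVER43 and 98.3% in EV, averaged 171 ± 3.68 FPKM in OVER43 cells, against 143 ± 2.36 FPKM in EV cells (log2 difference 0.26 with an SE of 0.028, adjusted p = 0.00331 by limma). RAB7A's ENST00000265062.3 averaged 138 ± 5.45 FPKM in OVER43 cells, against 119 ± 1.18 FPKM in EV cells, RAB5C's ENST00000547517.1 36.1 ± 3.09 FPKM in OVER43 cells, against 28.2 ± 2.22 FPKM in EV cells, and RAB21's ENST00000261263.3 18.4 ± 0.609 FPKM in OVER43 cells, against 15.1 ± 0.765 FPKM in EV cells, each called higher. Called lower were RAB5B's ENST00000360299.5 (11.4 ± 1.903 FPKM in OVER43 cells, against 18.6 ± 2.33 FPKM in EV cells), RAB18's ENST00000535776.1 (12.3 ± 0.3902 FPKM in OVER43 cells, against 16.4 ± 0.739 FPKM in EV cells), RAB2B's ENST00000397762.1, RAB3A's ENST00000222256.4, RAB3D's ENST00000222120.3 and RAB28's ENST00000508274.1, the last at 0.445 ± 0.196 FPKM in OVER43 cells, against 1.53 ± 0.308 FPKM in EV cells.

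RAB10's transcript ENST00000473035.1 held 30.02% ± 2.13 in OVER43 and 18.03% ± 6.67 in EV of the gene and averaged 22.9 ± 1.85 FPKM in OVER43 cells, against 11.9 ± 4.99 FPKM in EV cells, not called (log2 difference 0.97 with an SE of 0.31, adjusted p = 0.0931 by limma), while the main transcript ENST00000264710.4 averaged 48.998 ± 2.13 FPKM in OVER43 cells, against 46.6 ± 0.855 FPKM in EV cells. The 4 main transcripts of RAB2A and RAB9A that hold at least 20% of their gene were not called. Nor were those of RAB26, RAB27A, RAB1A, RAB1B, RAB5A, RAB6A, RAB8A and RAB11A, nor RAB4B's ENST00000357052.2. RAB4B's ENST00000595728.1 and the 3 of RAB30 were below the filter. Also not called were RAB18's ENST00000356940.6 (limma adjusted p = 0.0744) and ENST00000375802.3 (0.871), and RAB21's ENST00000358546.3 (0.457). The same held for RAB5C's ENST00000550013.1 (0.731), RAB2B's ENST00000461909.1 (0.954) and RAB11B's main transcript ENST00000328024.6 (0.0896).

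The isoform table also holds entries that span a whole gene with its introns, which can take up reads outside the spliced transcripts, such as unspliced RNA or genomic DNA. Such entries with an estimated 50 or more fragments were present for 34 tested RAB genes. In 12 of them (35.3%) the OVER43 libraries lay below the EV libraries and in 0 above, beside 48% without overlap, 37.3% below and 10.7% above, for all 9864 such entries. Their median log2 ratio of OVER43 over EV was -0.15, beside -0.16 for all. Of the 7 RAB genes called lower that have an entry, 5 had it lower without overlap: RAB3D, RAB2B, RAB11B, RAB14 and RAB18. The same share among all genes called lower, or among all called higher, was not computed, so the count cannot be read as particular to the RABs. For RAB14 the entry read 0.258, 0.265 and 0.245 FPKM in OVER43 libraries, against 0.363, 0.368 and 0.351 FPKM in EV libraries. For RAB5B, the other way, it read 0.214, 0.232 and 0.285 FPKM in OVER43 libraries, against 0.245, 0.233 and 0.231 FPKM in EV libraries, with overlapping groups.

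Of the 7 genes called higher, 0 had a higher whole-gene entry without overlap, beside 10.7% of all such entries whatever the call of their gene. The entry of RAB8B read 0.03398, 0.0426 and 0.0373 FPKM in OVER43 libraries, against 0.04403, 0.0429 and 0.0389 FPKM in EV libraries, overlapping, and that of RAB2A was lower in OVER43 without overlap, at 0.123 ± 0.00442 FPKM, against 0.153 ± 0.00993 FPKM in EV.

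**Figure D5:**
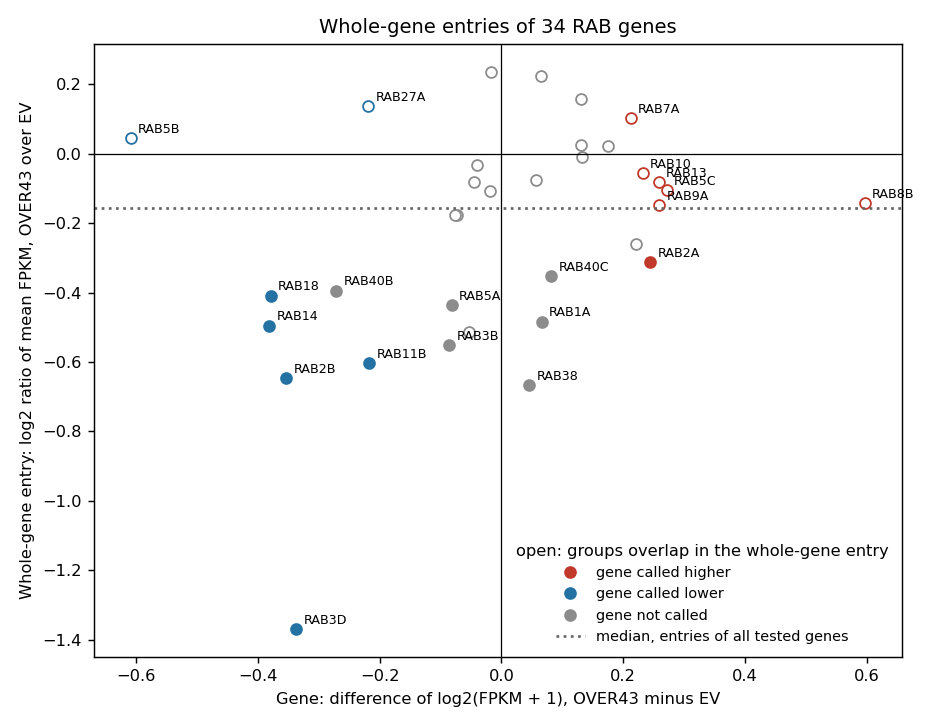
Log2 ratio of mean FPKM (OVER43 over EV) in the whole-gene entry against the difference of log2(FPKM + 1) of the gene, for 34 RAB genes; open points have overlapping groups in the entry, and the dotted line is the median of all such entries at -0.16. The 7 genes called higher lie between -0.31 and 0.10 on the vertical axis, and 5 of the 7 called lower are filled and below the line.

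The members were also set beside their neighbours on the chromosome. For 9 tested members, the median log2 fold change of the 20 nearest tested genes (10 on each side) differed by at least 0.15 from the median of all genes, and 5 of them were called. The share of all tested genes with such neighbours was not computed, so these counts have no reference. RAB14 (-0.38) had a neighbour median of -0.37, RAB18 (-0.38) of -0.24 and RAB5B (-0.61) of -0.28, all in the direction of the gene. RAB2B (-0.35) had neighbours at 0.32 and RAB26 (-0.74) at 0.22, against its direction. RAB15, RAB22A, RAB1A and RAB6A were not called, and their neighbours stood at 0.48, 0.26, -0.10 and -0.14. For RAB8B (0.60) the neighbour median was -0.045. The part of the neighbourhood in the changes of RAB14, RAB18 and RAB5B was not tested.

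Genes listed as loading, unloading, carrying or reading RABs were described through 4 lists with 184 members found, 155 of them tested. Of these, 27 were higher and 35 lower (40%, beside 45.9% of all tested genes), with a median log2 difference of -0.041. With equal sums the counts were 13 higher and 63 lower, beside 15.3% higher and 29.2% lower of all tested genes. In the membrane cycle list, 4 of 11 tested genes were higher and 2 lower, beside 28.4% and 17.5% of all tested genes. RABIF (MSS4), a RAB chaperone, stood at 9.74 ± 0.177 FPKM in OVER43 cells, against 6.56 ± 0.287 FPKM in EV cells (log2 difference 0.51 with an SE of 0.066, adjusted p = 0.000504 by limma). ICMT, which methylates prenylated proteins, stood at 46.1 ± 1.18 FPKM in OVER43 cells, against 36.2 ± 0.149 FPKM in EV cells (log2 difference 0.34 with an SE of 0.040, adjusted p = 0.000302 by limma). LRRK1, a kinase that phosphorylates RAB7A, stood at 4.298 ± 0.349 FPKM in OVER43 cells, against 3.38 ± 0.197 FPKM in EV cells. PDE6D, a carrier of prenylated proteins, was lower at 5.899 ± 0.867 FPKM in OVER43 cells, against 10.9 ± 1.27 FPKM in EV cells (log2 difference -0.79 with an SE of 0.11, adjusted p = 0.000853 by limma). RABGGTB, the beta subunit of the geranylgeranyl transferase that lipidates RABs, was lower at 64.8 ± 2.56 FPKM in OVER43 cells, against 80.6 ± 7.13 FPKM in EV cells (log2 difference -0.31, limma adjusted p = 0.005098).

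Among GEFs, 9 of 47 tested genes were higher and 12 lower, beside 28.4% and 17.5% of all tested genes. The GEF list had a median of 0.073. RIN3, which activates RAB5 and RAB31, stood at 19.3 ± 0.445 FPKM in OVER43 cells, against 12.8 ± 0.479 FPKM in EV cells (log2 difference 0.55), with a neighbour median of 0.51. HPS1, part of the exchange factor of RAB32 and RAB38, stood at 21.3 ± 2.19 FPKM in OVER43 cells, against 14.6 ± 0.972 FPKM in EV cells, and TRAPPC10, a subunit of the TRAPP complex for RAB1 and RAB11, at 21.4 ± 0.892 FPKM in OVER43 cells, against 14.8 ± 1.55 FPKM in EV cells. Of those lower, C9orf72, a DENN domain protein, stood at 4.68 ± 0.168 FPKM in OVER43 cells, against 9.17 ± 0.858 FPKM in EV cells (log2 difference -0.84 with an SE of 0.084, adjusted p = 0.000141 by limma). DENND1A, a RAB35 exchange factor, was at 6.46 ± 0.644 FPKM in OVER43 cells, against 11.1 ± 1.52 FPKM in EV cells and GAPVD1, which acts on RAB5, at 27.03 ± 1.09 FPKM in OVER43 cells, against 38.3 ± 0.915 FPKM in EV cells, with neighbour medians of -0.38 and -0.28.

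GAPs had 3 of 35 tested genes higher and 11 lower, with a median log2 fold change of -0.15, beside 28.4% higher and 17.5% lower of all tested genes. TBC1D30, reported as a GAP of RAB8A, had the largest decrease, at 0.505 ± 0.154 FPKM in OVER43 cells, against 3.37 ± 0.596 FPKM in EV cells (log2 difference -1.53 with an SE of 0.14, adjusted p = 9.22e-05 by limma). SGSM3 stood at 7.28 ± 0.474 FPKM in OVER43 cells, against 15.02 ± 0.456 FPKM in EV cells (log2 difference -0.95 with an SE of 0.068, adjusted p = 2.86e-05 by limma). TBC1D2 (Armus), a GAP of RAB7A, was lower at 1.36 ± 0.252 FPKM in OVER43 cells, against 2.58 ± 0.169 FPKM in EV cells, with a neighbour median of -0.44. The 3 called higher were TBC1D23, a golgin-binding tether, at 27.98 ± 0.863 FPKM in OVER43 cells, against 19.5 ± 0.6398 FPKM in EV cells, TBC1D14, of recycling endosomes and autophagy, at 32.1 ± 0.658 FPKM in OVER43 cells, against 26.6 ± 0.874 FPKM in EV cells, and TBC1D20, a GAP of RAB1, at 16.99 ± 0.772 FPKM in OVER43 cells, against 14.8 ± 0.499 FPKM in EV cells.

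Of 62 tested genes of the effector list, 11 were higher and 10 lower, beside 28.4% and 17.5% of all tested genes. The effector list had a median of -0.058. A place in this list does not show that a gene binds a RAB, which was not measured here. MICAL2, an actin-oxidizing enzyme of the MICAL group, stood at 41.2 ± 2.77 FPKM in OVER43 cells, against 19.5 ± 1.05 FPKM in EV cells (log2 difference 1.04 with an SE of 0.063, adjusted p = 1.37e-05 by limma). EXOC5, a subunit of the exocyst, was at 60.6 ± 2.56 FPKM in OVER43 cells, against 40.7 ± 2.804 FPKM in EV cells with a neighbour median of 0.33, and BICDL1, a dynein adaptor that binds RAB6, at 1.74 ± 0.444 FPKM in OVER43 cells, against 0.983 ± 0.201 FPKM in EV cells. RIMS3 was lower at 1.17 ± 0.106 FPKM in OVER43 cells, against 2.48 ± 0.224 FPKM in EV cells, OPTN (optineurin), which binds RAB8, at 16.3 ± 0.535 FPKM in OVER43 cells, against 22.5 ± 1.58 FPKM in EV cells, and OSBPL1A (ORP1L), which binds RAB7, at 9.14 ± 0.939 FPKM in OVER43 cells, against 12.5 ± 0.939 FPKM in EV cells.

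In the authors' deposited table, Cuffdiff q-values under 0.05 were given for 8 of the 47 members it tested. The share of all genes with such a q-value was not computed, so this count has no reference. They were 3 higher in OVER43 (RAB8B, RAB13 and RAB9B) and 5 lower (RAB26, RAB3D, RAB5B, RAB18 and RAB14), and limma called 7 of these 8 in the same direction, RAB9B lying below the filter. In the authors' deposited table RAB14 had q = 0.00102, RAB13 q = 0.0107 and RAB10, called here, q = 0.264.

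The libraries held an estimated 46.4 to 49.2 M fragments in OVER43 and 42.4 to 52 M in EV, read from the steps of low FPKM values. Correlation between libraries of log2(FPKM + 1) was 0.988 to 0.992 within groups and 0.9704 to 0.972 between them. Markers of other cells were near 0: summed FPKM was 0.185 to 0.379 in OVER43 and 0.338 to 0.895 in EV for 6 fibroblast genes, 0.0285 to 0.127 and 0 to 0.0405 for 5 leukocyte genes, and 0.259 to 0.432 and 0.112 to 0.175 for 4 endothelial genes, with COL3A1, PTPRC and CD3E among those at 0. Of 8 colon epithelium markers, KRT20 was listed at 0 and CDH1, VIL1 and LGALS4 lay below the filter, while EPCAM stood at 20.5 and 12.5 FPKM, KRT18 at 148 and 79.4 FPKM, KRT8 at 24.6 and 58.7 FPKM and CDX2 at 6.21 and 7.78 FPKM, in OVER43 and EV. The part of this shift in epithelial markers in the RAB changes was not tested.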

How the data were processed

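Per the labels' protocols, poly(A) RNA of 3 OVER43 and 3 EV samples was made into Illumina TruSeq libraries. The authors deposited a gene table and an isoform table made with Cuffdiff, per the submitters' processing notes (its version is not given in the sources used here, nor are the aligner and read strand). Per the file headers, the deposited values are FPKM per library, scaled between libraries by the authors, beside their group means. The log2 fold change deposited by the authors has EV on top, and the deposited test statistic (a score), p-values and q-values are Cuffdiff's; only the q-values were used, for comparison. The notes name hg38, but of 22437 genes alone in their locus and shared with GENCODE 29, 179 share a start or end with GRCh38, so loci are given as hg19; promoters and motifs are RefSeq's on GRCh38.p14. Columns are numbered 0 to 2 where the labels number samples from 1, and a column was taken only as 1 library of that group; 19 genes without an estimate were left out.

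Genes and transcripts with at least 1 FPKM in 3 of 6 libraries were fitted with limma 3.58.1 (R 4.3.3; trend, robust; group as the only term) on log2(FPKM + 1), two-sided, with Benjamini-Hochberg adjustment over all tested features, which understates the fold change of low genes. The limma fit was also run on simulated data with few changed genes and no shift in scale between the groups. That run does not bear on the dependence on scaling. Paralog ratios were compared by an exact permutation test. Members, lists and tests were chosen with earlier results of these data known. Values in each library are given for the called members of largest change (up to 8 in each direction), the 5 most abundant and 10 fixed RABs (RAB1A, RAB5A, RAB6A, RAB7A, RAB8A, RAB11A, RAB13, RAB25, RAB27A, RAB31), and, of each partner list, up to 3 called genes in each direction. Alternatives were 3 other scalings (TMM, quantile, equal sums), 2 other filters (none, or 5 FPKM), the pseudocount 0.1, the column number as a block, each library left out in turn, the authors' q-values, and leaving out members with shifted neighbours. The tables hold no counts, so no count test was run.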

Additional observations from a re-analysis of the deposited data

How the results depend on the processing

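Of the 18 called RAB genes, 7 kept their call in every limma alternative that tested them (RAB8B, RAB26, RAB5B, RAB4B, RAB14, RAB18 and RAB3D), 11 lost it in at least 1, and 8 of these in an alternative other than a filter. By the authors' deposited q-values 11 of the 18 were not called, RAB4B among them (q = 0.307), which leaves 6 called throughout. Against 7 higher and 11 lower RAB genes, quantile scaling gave 2 higher, equal sums 2 and 18, no filter 3 and 7 (more genes enter the adjustment), at least 5 FPKM 7 lower (4 of the 11 are not tested), the authors' deposited q-values 3 and 5, and leaving out members with shifted neighbours 6 lower (5 members removed). RAB1A turned to -0.11 with quantile scaling and -0.076 with equal sums. RAB transcripts, 6 higher and 7 lower, came to 3 higher with TMM, 1 and 11 with quantile scaling, 2 and 12 with equal sums, 1 and 2 with no filter, and 2 and 1 with the column block. Leaving out 1 library gave 2 to 5 higher (2 without OVER43 library 1, OVER43 library 2 or EV library 1) and 2 to 4 lower (2 without OVER43 library 0, OVER43 library 2 or EV library 0; 3 without EV library 1; 4 without OVER43 library 1 or EV library 2). Partner genes, 27 and 35, came to 13 and 63 with equal sums and 16 and 22 with no filter; all genes, 3462 and 2138, came to 1870 and 3567 with equal sums. Where no reason is given, the cause was not tested. Shares of all genes called are given only as deposited and under the 3 other scalings, and shares of all transcripts only as deposited. The other counts in this section have no such share beside them and cannot be read as particular to the RABs. Same-numbered columns correlated at 0.017, -0.091 and 0.029 in their deviations from the group means. Columns of different numbers correlated at -0.099 to 0.097. No pairing by number is seen in these values, but they cannot exclude that same-numbered libraries were prepared together. The block did not call RAB27A (0.0664, limma adjusted p, as those that follow) and RAB2B (0.0529). It called RAB8A (0.0471), and gave 9 higher and 9 lower RAB genes. With 3 libraries per group, members near 1 FPKM had the largest SEs of the tested RAB genes (0.17 for RAB30 and 0.18 for RAB3A).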
